A study of Mus musculus with 6 samples.

Results

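The genes described here are 36 mouse genes of the endoplasmic reticulum (ER) chaperone system and the unfolded protein response, chosen by gene symbol. All 36 were found among the 14608 genes of the deposited tables and all passed the filter on low values that left 12233 genes for testing. They were divided by role into 15 ER folding factors, 8 sensors, transcription factors and feedback genes of the unfolded protein response, 6 genes of ER-associated degradation, and 7 genes of the protein translocation channel and its associated TRAP complex. The RNA came from spleen cells of mice that had been sorted for CD4 and the fluorescent protein YFP as regulatory T (Treg) cells, the Foxp3-expressing T cells that keep immune responses in check. Each of 3 genotypes had 2 libraries: WT (wild type), Cdc42+/- (1 knockout allele of Cdc42) and Cdc42-/- (both alleles knocked out). Cdc42 encodes a small GTPase that regulates the actin cytoskeleton and cell polarity. No treatment or time point is given, and the sources used here name neither the age or sex of the mice nor what drives YFP or the knockout. The series' design text speaks of separate mice but ties no mouse to a library, so the p-values measure the spread between these libraries.

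Secreted and membrane proteins enter the ER through the Sec61 channel, where chaperones, lectins and disulfide isomerases fold them and misfolded chains are returned to the cytosol for degradation. When folding falls behind, the sensors encoded by Ern1 (IRE1), Eif2ak3 (PERK) and Atf6 start the unfolded protein response: IRE1 splices Xbp1 mRNA, PERK slows translation and favours Atf4 and then Ddit3 (CHOP), and cleaved ATF6 enters the nucleus. XBP1 and ATF6 raise chaperone and degradation genes, in part through the ER stress response element (ERSE) of their promoters. In lymphocytes the pathway is best known from the differentiation of B cells into antibody-secreting plasma cells, and T cells also engage it on activation.

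The promoters of the members were searched for such elements to show what these genes share in sequence. RefSeq promoters of the GRCm38.p6 build, from 250 bases before to 50 bases after the gene start, were found for 30 of the 36 members, and those of Hyou1, Manf, Atf6, Derl1, Sec61a1 and Ssr2 were not. The mouse build named in the submitters' processing notes, mm10, is the same assembly. The ERSE, searched on both strands as CCAAT, 9 bases of any kind and CCACG, was present in 8 of the 30 promoters (26.7%), against 37 of 27025 promoters of all genes (0.137%). The related ERSE-II, searched as ATTGG, 1 base of any kind and CCACG, was present in 2 of the 30 (6.67%) and in 12 promoters of all genes (0.0444%). The elements of the members without a whole promoter printed here read as follows, 5′ to 3′ on the strand of the match, with the fixed bases in capitals.
Calr: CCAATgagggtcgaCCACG
Canx: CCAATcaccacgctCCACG
Pdia6: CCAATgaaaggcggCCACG
Creld2: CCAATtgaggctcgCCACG
Syvn1: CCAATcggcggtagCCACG
Dnajb11: ATTGGcCCACG

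The first bases of the ERSE copies lay between 44 bases (Syvn1) and 212 bases (Hsp90b1) before the gene start. The promoters of 5 members are given whole, read 5′ to 3′ along the gene's strand, with matched bases in capitals, to show the ERSE in the best known target gene and in 2 copies, the ERSE-II, and the promoters of 2 folding genes at the ends of the range of fold changes. Hspa5, the gene of the chaperone BiP (chr2:34771840-34772139, plus strand), and Hsp90b1 (chr10:86705395-86705694, minus strand) carry the ERSE, Hsp90b1 in 2 copies of which 1 lies on the opposite strand. Dnajc3 (chr14:118937682-118937981, plus strand), the only member that passed the test in the lower direction, carries 1 copy. Herpud1 (chr8:94386179-94386478, plus strand) carries an ERSE-II and the ATF4 and CHOP element TTGCATCA. Sdf2l1 (chr16:17132334-17132633, minus strand), the folding gene with the largest log2 fold change in Cdc42-/- cells, holds none of these letter patterns in this window.
Hspa5: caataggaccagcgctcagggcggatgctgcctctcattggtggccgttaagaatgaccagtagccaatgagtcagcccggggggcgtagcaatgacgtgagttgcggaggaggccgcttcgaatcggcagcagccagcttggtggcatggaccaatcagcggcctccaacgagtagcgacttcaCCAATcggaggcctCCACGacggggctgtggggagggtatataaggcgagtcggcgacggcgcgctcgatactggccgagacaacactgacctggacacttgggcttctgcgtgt
Hsp90b1: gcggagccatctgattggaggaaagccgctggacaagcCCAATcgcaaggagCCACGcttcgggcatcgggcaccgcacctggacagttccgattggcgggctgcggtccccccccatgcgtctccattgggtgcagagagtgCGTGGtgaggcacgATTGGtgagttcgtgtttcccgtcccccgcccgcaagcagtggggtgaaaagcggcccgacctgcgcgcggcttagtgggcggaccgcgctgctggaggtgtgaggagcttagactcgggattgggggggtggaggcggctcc
Dnajc3: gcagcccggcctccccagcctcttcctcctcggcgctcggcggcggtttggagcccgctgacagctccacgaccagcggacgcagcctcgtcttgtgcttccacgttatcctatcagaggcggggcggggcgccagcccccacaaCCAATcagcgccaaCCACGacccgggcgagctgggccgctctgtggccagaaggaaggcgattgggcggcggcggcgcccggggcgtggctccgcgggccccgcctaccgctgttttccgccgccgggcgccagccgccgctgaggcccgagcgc
Herpud1: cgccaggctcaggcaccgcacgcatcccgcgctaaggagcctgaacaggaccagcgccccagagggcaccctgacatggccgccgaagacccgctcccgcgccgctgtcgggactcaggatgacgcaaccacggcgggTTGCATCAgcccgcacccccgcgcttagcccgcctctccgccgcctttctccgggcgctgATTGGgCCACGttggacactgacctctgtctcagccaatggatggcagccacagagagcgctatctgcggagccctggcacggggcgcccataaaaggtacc
Sdf2l1: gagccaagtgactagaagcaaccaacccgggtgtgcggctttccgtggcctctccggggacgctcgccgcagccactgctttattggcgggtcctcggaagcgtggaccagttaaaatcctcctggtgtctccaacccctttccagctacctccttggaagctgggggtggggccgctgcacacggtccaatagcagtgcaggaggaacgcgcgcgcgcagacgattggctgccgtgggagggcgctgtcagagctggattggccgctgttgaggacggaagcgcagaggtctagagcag

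TTGCATCA was found in 1 of the 30 promoters (3.33%) and in 279 of all promoters (1.03%). The XBP1 element TGACGTGG was found in 0 of the 30 and in 193 of all promoters (0.714%). Each pattern was searched on both strands and no matches overlapped one another. These letter matches are descriptions of the sequence and no measurement of binding. Relative to the mean of both WT libraries, the 10 members with an ERSE or ERSE-II had a median difference of -0.01 on the log2 scale in Cdc42-/- replicate 1 and 0.58 in replicate 2. The 20 members with a promoter but neither element had medians of 0.07 and 0.48 in the same libraries, and the ranges of both sets overlapped.

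The libraries held between 8556576 and 17796100 reads in genes, and the lowest read number of any member was 16, for Trib3 in WT replicate 2. Levels are given as RPKM (reads normalised to gene length and to the library's total), and log2 fold changes are differences of log2(RPKM + 1), which understates changes of weakly expressed genes. Cdc42 itself did not pass the test between the groups labelled Cdc42-/- (122 and 173 RPKM) and WT (166 and 161 RPKM), with a log2 fold change of -0.17 and adjusted p = 0.550 by limma. Without Cdc42-/- replicate 2 Cdc42 was lower, with a log2 fold change of -0.42 against WT (adjusted p = 0.0166) and -0.39 against Cdc42+/- (adjusted p = 0.0259). The level in replicate 2 was the highest of the 6 libraries and does not bear out its label. Replicate 1 still held 122 RPKM, and a gene-level value does not show the state of the alleles. In Cdc42+/- the Cdc42 level was 164 and 156 RPKM, close to WT (log2 fold change -0.03, adjusted p = 0.999 by limma), so the level does not check that label. Each direction below is that of libraries so labelled. Foxp3, which defines Treg cells, was detected in every library and lay at 103 to 131 RPKM in 5 of them and at 58.4 RPKM in Cdc42-/- replicate 2. The 8 Treg and T cell markers together summed to between 1660.0 and 1820.4 RPKM in the WT and Cdc42+/- libraries. In Cdc42-/- they summed to 1417 and 1136 RPKM. There 3 of them, Cd3g, Cd3e and Ikzf2, were lower than in WT (log2 fold changes -0.80, -0.78 and -0.90, adjusted p = 0.00895, 0.0126 and 0.0311 by limma). Each of the 3 passed in 7 of 12 alternatives, and without replicate 2 their log2 fold changes were -0.73, -0.67 and -0.63. Ctla4 went the other way, with 157 and 130 RPKM in the WT libraries and 202 and 201 RPKM in Cdc42-/-. It was the only 1 of the 8 with a log2 fold change above 0 (0.49, adjusted p = 0.0524 by limma). The part of these 8 markers in the members' values was not tested. Cdc42-/- replicate 2 stood apart in markers of other cells. The 14 myeloid markers, all above 0 in each library, summed to 18.7 and 55.7 RPKM in the WT libraries, 32.6 and 45.3 in Cdc42+/-, and 46.6 and 1573 RPKM in Cdc42-/-. The 6 erythroid markers summed to 0.649 to 4.29 RPKM in the WT and Cdc42+/- libraries, 20.9 RPKM in Cdc42-/- replicate 1 and 162 RPKM in replicate 2. Car1 and Slc4a1 of this list rose in Cdc42-/- (log2 fold changes 5.43 and 2.63, adjusted p = 0.0178 and 0.0313 by limma). Each passed in 6 of 12 alternatives, and without replicate 2 the log2 fold changes were 3.87 and 1.79. Car1 measured 0 RPKM in both WT libraries and 13.6 and 125 RPKM in Cdc42-/-. The 4 defining plasma cell markers Jchain, Sdc1, Mzb1 and Tnfrsf17 summed to 11.5 and 14.1 RPKM in the WT libraries, 92.7 and 72.7 in Cdc42+/-, and 3.02 and 144 RPKM in Cdc42-/-, where Mzb1 and Tnfrsf17 were listed at 0 in replicate 1. Outside Cdc42-/- replicate 1, most of each of these sums was Jchain (Cdc42+/- 89.0 and 69.2 RPKM, Cdc42-/- replicate 2 123 RPKM). Mzb1 was also higher in both Cdc42+/- libraries (2.01 and 2.17 RPKM) than in WT (0.416 and 1.03). Sdc1 did not follow, since its highest value was that of WT replicate 2 (3.94 RPKM, Cdc42+/- 1.41 and 0.937). Tnfrsf17 was higher in WT replicate 1 (0.542 RPKM) than in either Cdc42+/- library (0.321 and 0.415). The whole list of 9 plasma cell markers includes genes that activated T cells express, and also the member Xbp1. These 9 genes summed to 83.1 RPKM in both WT libraries, 178 and 150.2 in Cdc42+/-, and 114 and 310.1 RPKM in Cdc42-/-. Of these, Prdm1 and Irf4 rose in Cdc42-/- (log2 fold changes 1.70 and 1.04, adjusted p = 0.00443 and 0.0107 by limma) and were high in both Cdc42-/- libraries. The male-specific Ddx3y was high in both WT libraries (37.7 and 42.4 RPKM), near 0 in both Cdc42+/- libraries and Cdc42-/- replicate 1 (at most 0.126 RPKM), and at 27.5 RPKM in Cdc42-/- replicate 2. The female-specific Xist was at most 1.13 RPKM in WT, 99.3 and 93.3 RPKM in Cdc42+/-, 87.4 RPKM in Cdc42-/- replicate 1 and 21.2 RPKM in replicate 2. Sex and genotype therefore cannot be told apart between WT and Cdc42+/-, nor between WT and Cdc42-/- when replicate 2 is left out. Replicate 2 held both transcripts, so the Cdc42-/- libraries differ from WT in them with replicate 2 included too. The part of sex in that comparison was not tested. The comparison of the members in Cdc42-/- with WT is given below with and without replicate 2.

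**Figure D1:**
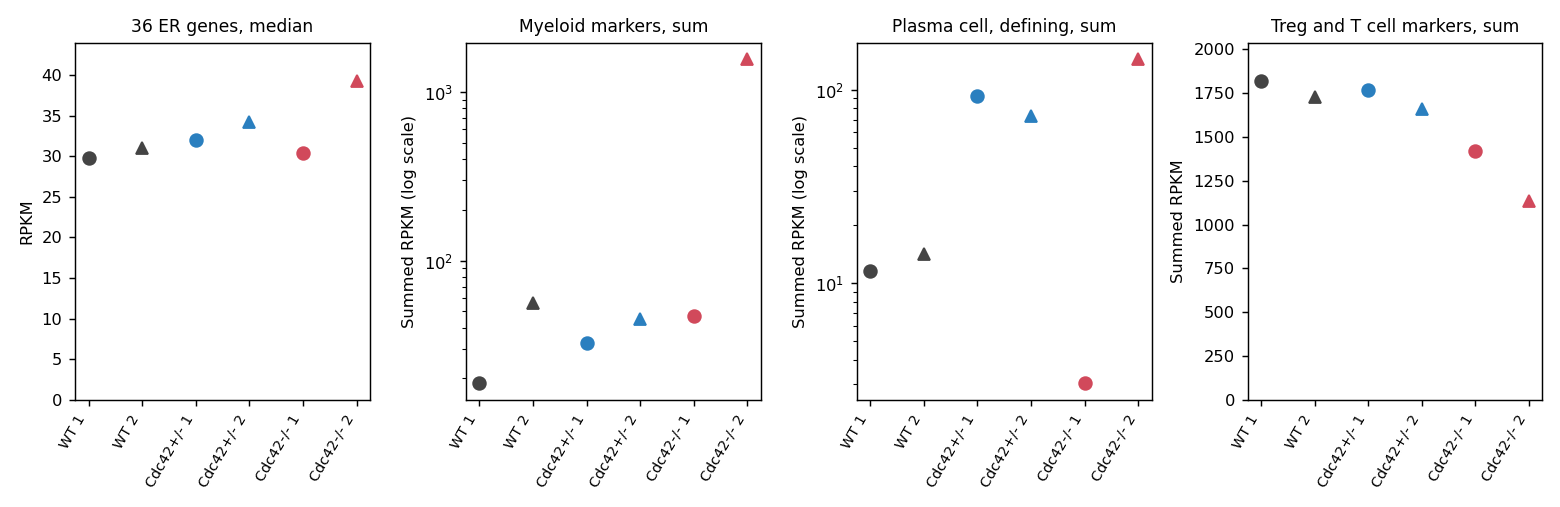
Panels give, for each of the 6 libraries (1 point each), the median RPKM of the 36 members, the summed RPKM of the myeloid and defining plasma cell markers (log axes) and the summed RPKM of the Treg and T cell markers. Cdc42-/- replicate 2 is the highest in the first 3 panels (39.3, 1573 and 144 RPKM) and the lowest for the Treg and T cell markers (1136 RPKM).

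In the Cdc42-/- cells, 3 of the 36 members differed from WT at an adjusted p under 0.05 (limma with Benjamini-Hochberg adjustment over the genes tested). Atf6, a stress sensor, and Sec61a1, the channel-forming subunit of the translocon, rose, and Dnajc3, a BiP co-chaperone, fell. The members' share of 8.33% lay near the background, since 11.4% of all genes tested were called (6.86% higher and 4.57% lower, or 5.98% and 6.16% with upper-quartile scaling). At an unadjusted p under 0.05, 10 members were higher and 2 lower, against 16.0% and 13.3% of all genes. The median log2 fold change of the members was 0.31, with 29 of 36 above 0, beside a median of 0.01 over all genes tested and 51.0% above 0. Both Cdc42-/- libraries lay above both WT libraries for 18 members (28.9% of all genes) and below both for 2 members (27.1% of all genes). Both lay above the other 4 libraries for 13 members and below them for 2, Dnajc3 and Edem1, and the share over all genes was 22.1% in each direction.

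The 2 Cdc42-/- libraries differed from each other in nearly the whole set. Replicate 2 exceeded replicate 1 for 33 of 36 members, against 53.8% of all genes, with Ddit3, Herpud1 and Edem1 as the exceptions. Relative to the WT mean the median member differed by 0.07 on the log2 scale in replicate 1 and by 0.57 in replicate 2. The medians over all genes tested were 0.0015 and 0.021. For 11 members, replicate 1 lay inside the range of the 4 WT and Cdc42+/- libraries, a count that was not made over all genes. The summed myeloid, erythroid and plasma cell markers above were highest in the same replicate 2, and their part in these values was not tested. In these bulk libraries, a change in the proportion of cells of a type and a change in RNA per cell cannot be told apart.

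**Figure D2:**
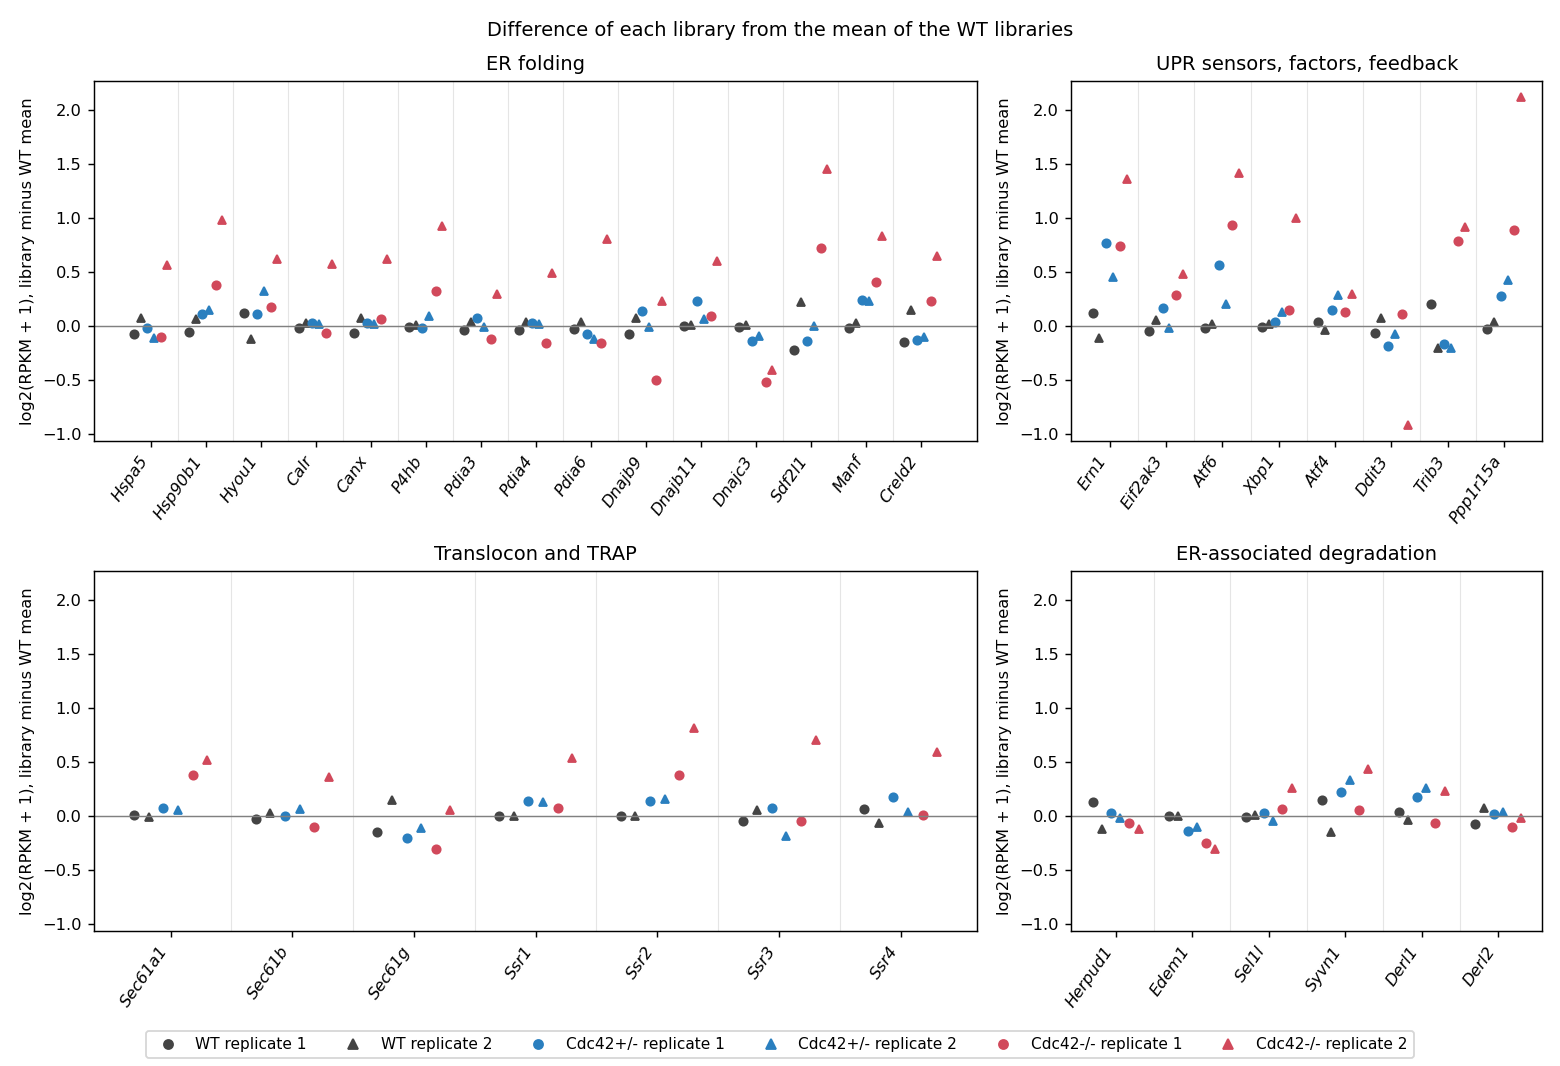
Difference of log2(RPKM + 1) from the mean of both WT libraries for each of the 36 members, grouped by role, with 1 point per library. The triangle of Cdc42-/- replicate 2 lies above the circle of replicate 1 for 33 members, and their medians are 0.57 and 0.07.

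Without Cdc42-/- replicate 2, 7 members were higher than WT (Ppp1r15a, P4hb, Hsp90b1, Atf6, Sec61a1, Ssr2 and Manf; background 9.89%) and 1 was lower (Dnajc3; background 8.61%). Without replicate 1, 24 members were higher (background 20.8%) and 3 lower (background 15.4%). In both of these fits the lone Cdc42-/- library is assumed to vary like the other groups. The Cdc42-/- library left without replicate 2 differs from WT in its sex-linked transcripts too, so its calls against WT cannot be told apart from sex. Atf6, Sec61a1 and Dnajc3 kept their direction in each. Leaving out either WT library left 0 of the 36 past the threshold (background 2.12% and 2.14%), as did leaving out either Cdc42+/- library (4.47% and 4.50%) or fitting WT and Cdc42-/- alone (4.38%). A pseudocount of 0.1 in place of 1 gave 5 members (background 11.8%).

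The sensors and feedback genes held the 2 largest log2 fold changes of the set, those of Ppp1r15a and Atf6. The median log2 fold change of these 8 genes in Cdc42-/- cells was 0.71 (0.51 in replicate 1 and 0.96 in replicate 2, each against the WT mean), 7 of 8 were above 0, and 1 rose (51.0% and 6.86% of all genes). Atf6 (chr1:170704457-170868585, GRCm38), the sensor that is itself cleaved into a transcription factor, measured 3.64 and 3.76 RPKM in the WT libraries, 5.91 and 4.41 in Cdc42+/-, and 7.97 and 11.5 RPKM in Cdc42-/-. No 2 genotypes overlapped, and Cdc42+/- lay between the others. The log2 fold change from WT to Cdc42-/- was 1.17 ± 0.23 (SE, n = 2 libraries per group), a 2.64-fold ratio of means, with adjusted p = 0.0265 by limma. Over the 12 alternatives the adjusted p ran from 0.00363 to 0.151 and passed in 7. It was 0.0328 without replicate 2, with a log2 fold change of 0.93. The authors' deposited table gives Atf6 a log2 fold change of 1.35 with an adjusted p of 0.000374, and calls 2 of the 36 members (background 8.66%).

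Neither of the other sensors passed the test. Ern1, the kinase and nuclease IRE1, measured 2.32 and 1.82 RPKM in the WT libraries, 4.21 and 3.18 in Cdc42+/-, and 4.09 and 6.86 RPKM in Cdc42-/-. Both mutant groups lay above WT and overlapped each other. Its log2 fold change in Cdc42-/- was 1.05 ± 0.27 (SE), with adjusted p = 0.0605 by limma, or 0.73 without replicate 2. Eif2ak3, the kinase PERK that phosphorylates the translation factor eIF2α, measured 6.04 and 6.57 RPKM in the WT libraries, 7.18 and 6.19 in Cdc42+/-, and 7.91 and 9.19 RPKM in Cdc42-/- (log2 fold change 0.38, adjusted p = 0.179, or 0.29 without replicate 2). Its Cdc42-/- libraries were the highest, and the test did not separate them from WT.

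Of the transcription factors, Xbp1 measured 28.4 and 28.9 RPKM in the WT libraries, 29.4 and 31.4 in Cdc42+/-, and 31.8 and 58.1 RPKM in Cdc42-/-. Replicate 1 lay close to the Cdc42+/- libraries and replicate 2 stood apart, and the log2 fold change of 0.57 had adjusted p = 0.208 and was 0.15 without replicate 2. These gene-level values do not separate spliced from unspliced Xbp1 mRNA. Atf4, which activates amino acid and stress genes and is controlled chiefly at translation, measured 55.1 and 52.2 RPKM in the WT libraries, 59.4 and 65.7 in Cdc42+/-, and 58.8 and 65.9 RPKM in Cdc42-/-. Both mutant groups were above WT and close to each other (log2 fold change from WT to Cdc42-/- 0.21, adjusted p = 0.261, or 0.13 without replicate 2). Ddit3, the pro-apoptotic factor CHOP, measured 18.6 and 20.7 RPKM in the WT libraries, 17.1 and 18.6 in Cdc42+/-, and 21.2 and 9.93 RPKM in Cdc42-/-. Its Cdc42-/- libraries were the highest and the lowest of the 6, and the log2 fold change of -0.40 (adjusted p = 0.431) turned to 0.11 without replicate 2.

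The feedback genes Ppp1r15a and Trib3 were highest in both Cdc42-/- libraries. Ppp1r15a (GADD34), the phosphatase subunit that reverses eIF2α phosphorylation, measured 5.82 and 6.11 RPKM in the WT libraries, 7.40 and 8.35 in Cdc42+/-, and 11.9 and 29.1 RPKM in Cdc42-/-. The 3 genotypes did not overlap, but the Cdc42-/- libraries lay far apart, and the log2 fold change of 1.499 ± 0.37 (SE), the largest of the 36, had adjusted p = 0.0544. Without replicate 2 the log2 fold change was 0.89 and passed, and the authors' deposited table gives 1.72 with an adjusted p of 0.00269. Of the 16 tested immediate early genes, which respond to cell handling as well as to signalling, 10 were higher and 1 was lower in Cdc42-/- (6.86% and 4.57% of all genes), with a median of 1.01 (0.66 in replicate 1 and 1.24 in replicate 2). Their part in the Ppp1r15a value was not tested. Trib3, a pseudokinase induced by CHOP that restrains stress signalling, measured 1.53 and 0.911 RPKM in the WT libraries, 0.953 and 0.904 in Cdc42+/-, and 2.78 and 3.15 RPKM in Cdc42-/-. Its Cdc42-/- libraries resembled each other and exceeded the other 4 (log2 fold change 0.85, adjusted p = 0.0795, or 0.78 without replicate 2).

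**Figure D3:**
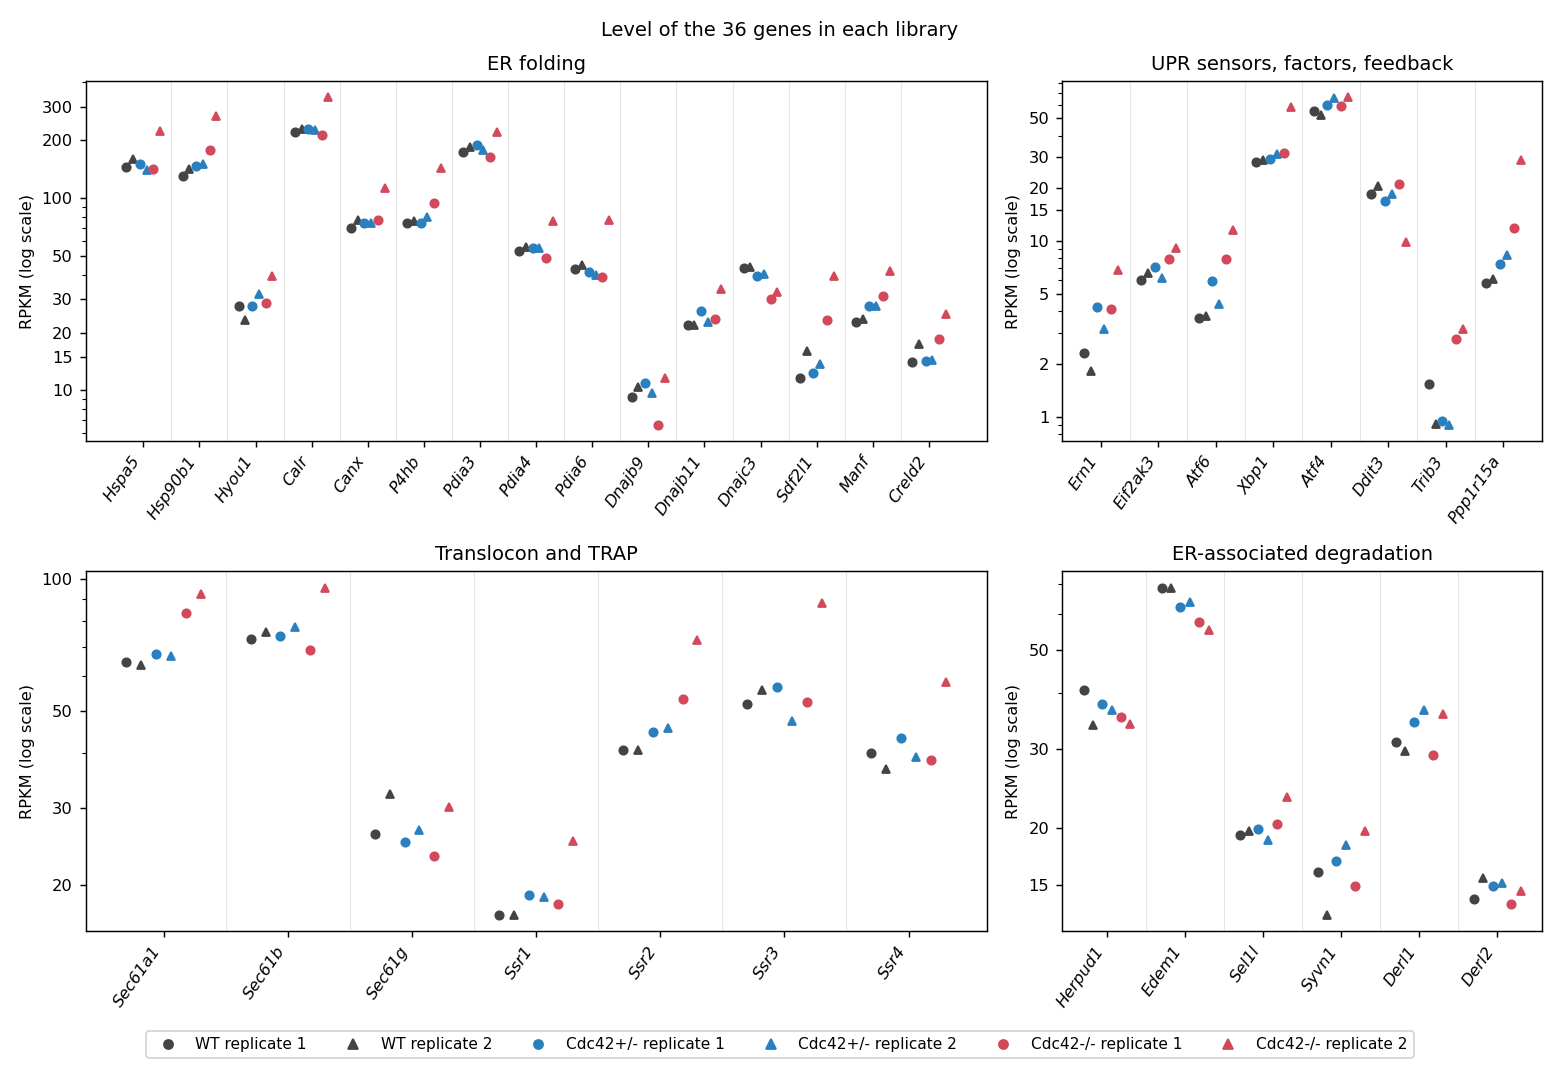
RPKM of each of the 36 members (log axis), grouped by role, with 1 point for each of the 6 libraries, coloured by genotype. For Atf6 and Ppp1r15a the points lie in the order WT, Cdc42+/-, Cdc42-/- without overlap. Cdc42-/- replicate 2 lies above replicate 1 for 33 of the 36 members (53.8% of all genes).

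Among the 15 folding genes, 1 fell and 0 rose past the threshold (4.57% and 6.86% of all genes), and 13 had log2 fold changes above 0 (51.0% of all genes; median 0.34, being 0.06 in replicate 1 and 0.62 in replicate 2). Dnajc3 (p58IPK), a J-domain partner of BiP that also inhibits PERK, measured 43.1 and 43.7 RPKM in the WT libraries, 39.4 and 40.5 in Cdc42+/-, and 30.001 and 32.4 RPKM in Cdc42-/-. The 3 genotypes did not overlap and both Cdc42-/- libraries were low together. The log2 fold change from WT to Cdc42-/- was -0.47 ± 0.10 (SE), a ratio of 0.718, with adjusted p = 0.0368 by limma, and adjusted p ran from 0.0111 to 0.205 over the 12 alternatives, passing in 6. The log2 fold change was -0.52 without replicate 2. In the authors' deposited table Dnajc3 has a log2 fold change of -0.52 with an adjusted p of 0.156.

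Per unit of gene length, the members' WT means ran from 1.22 RPKM for Trib3 to 225 RPKM for Calr, and the central chaperones were at the upper end. Hspa5 (BiP), the Hsp70 of the ER and the usual readout of the unfolded protein response, measured 145 and 160.4 RPKM in the WT libraries, 150.4 and 140.4 in Cdc42+/-, and 141 and 225 RPKM in Cdc42-/-. Only replicate 2 exceeded the WT range, and the log2 fold change of 0.23 (adjusted p = 0.523) was 0.56 without replicate 1 and -0.11 without replicate 2. Calr, the soluble lectin chaperone calreticulin and the member with the highest RPKM, was likewise highest in replicate 2, with 221 and 228 RPKM in the WT libraries, 228 in both Cdc42+/- libraries, and 214 and 335 RPKM in Cdc42-/- (log2 fold change 0.25, adjusted p = 0.451, or -0.067 without replicate 2). Its membrane-bound relative calnexin, Canx, measured 70.0 and 77.1 RPKM in the WT libraries, 74.8 and 74.1 in Cdc42+/-, and 76.7 and 113 RPKM in Cdc42-/-. Its replicate 1 lay inside the WT range, and the log2 fold change of 0.34 (adjusted p = 0.275) was 0.061 without replicate 2. Hsp90b1, the ER Hsp90 also called GRP94, needed for folding of integrins and Toll-like receptors, had both Cdc42-/- libraries high. It measured 131 and 142 RPKM in the WT libraries, 148 and 151 in Cdc42+/-, and 178 and 269 RPKM in Cdc42-/-. They were above the other 4, with a log2 fold change of 0.68 ± 0.20 (SE) and adjusted p = 0.0785 by limma, or 0.38 and past the threshold without replicate 2. Hyou1 (GRP170), a nucleotide exchange factor of BiP, measured 27.6 and 23.2 RPKM in the WT libraries, 27.4 and 31.8 in Cdc42+/-, and 28.6 and 39.4 RPKM in Cdc42-/-. Its replicate 1 lay inside the range of the WT and Cdc42+/- libraries, and the log2 fold change of 0.40 (adjusted p = 0.215) was 0.17 without replicate 2.

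Several smaller chaperone partners and secreted stress factors were highest in the Cdc42-/- libraries. Sdf2l1, a partner of BiP and ERdj3, measured 11.6 and 16.1 RPKM in the WT libraries, 12.3 and 13.7 in Cdc42+/-, and 23.3 and 39.2 RPKM in Cdc42-/-. The WT and Cdc42+/- libraries overlapped and both Cdc42-/- libraries exceeded them, with a log2 fold change of 1.09 ± 0.27 (SE) and adjusted p = 0.0527 by limma, or 0.72 without replicate 2. Manf, a secreted factor that binds BiP, measured 22.7 and 23.6 RPKM in the WT libraries, 27.4 in both Cdc42+/- libraries, and 30.9 and 41.9 RPKM in Cdc42-/-. The 3 genotypes stood in that order without overlap (log2 fold change from WT to Cdc42-/- 0.62, adjusted p = 0.0568, or 0.40 without replicate 2). Creld2, another secreted ER stress factor, measured 14.0 and 17.5 RPKM in the WT libraries, 14.2 and 14.5 in Cdc42+/-, and 18.5 and 24.96 RPKM in Cdc42-/- (log2 fold change 0.43, adjusted p = 0.177, or 0.23 without replicate 2). The WT and Cdc42+/- ranges overlapped, and both Cdc42-/- libraries lay above them.

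The disulfide isomerases, which form and rearrange disulfide bonds, showed 2 patterns over the libraries. P4hb (PDI), the founding member of the family, measured 74.8 and 75.7 RPKM in the WT libraries, 74.2 and 79.9 in Cdc42+/-, and 94.1 and 144 RPKM in Cdc42-/-. Both Cdc42-/- libraries exceeded the other 4 (log2 fold change 0.62, adjusted p = 0.0969, or 0.32 without replicate 2). Pdia3 (ERp57), which works with calnexin and calreticulin on glycoproteins, measured 175 and 184 RPKM in the WT libraries, 188 and 178 in Cdc42+/-, and 165 and 220.0 RPKM in Cdc42-/-. Its Cdc42-/- libraries were the lowest and the highest of the 6, and the same was seen for Pdia4, at 48.6 and 76.4 RPKM, and Pdia6, at 39.0 and 77.3 RPKM. The log2 fold changes of Pdia3, Pdia4 and Pdia6 were 0.08, 0.16 and 0.32, with adjusted p between 0.504 and 0.744, and -0.12, -0.16 and -0.16 without replicate 2. Of the remaining J-domain proteins, Dnajb9 (ERdj4), a repressor of IRE1, measured 6.64 and 11.7 RPKM in Cdc42-/- and 9.26 to 10.9 RPKM in the other libraries (log2 fold change -0.14, or -0.50 without replicate 2). Dnajb11 (ERdj3) measured 23.4 and 33.5 RPKM in Cdc42-/- and 21.8 to 25.8 RPKM in the others (log2 fold change 0.35, or 0.094 without replicate 2).

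The 6 genes of ER-associated degradation had the median closest to 0 of the 4 roles, a log2 fold change of 0.01 in Cdc42-/-, with 3 of 6 above 0 and 0 past the threshold by limma. At an unadjusted p under 0.05, 1 of the 6 was lower and 0 higher (13.3% and 16.0% of all genes), and voom on the recovered reads called 0 (11.0% of all genes). In replicate 1 the median of the 6 was -0.07 and in replicate 2 it was 0.11. The ranking did not hold in replicate 1 alone, where the translocon and TRAP genes (0.01) and the folding genes (0.06) lay closer to no difference. Edem1, a lectin that directs misfolded glycoproteins to degradation, measured 68.8 and 68.5 RPKM in the WT libraries, 62.4 and 63.8 in Cdc42+/-, and 57.6 and 55.5 RPKM in Cdc42-/-. The genotypes were in descending order without overlap, with a small difference (log2 fold change -0.28 ± 0.09 SE, adjusted p = 0.109 by limma, or -0.25 without replicate 2). Herpud1, a scaffold of the degradation complex, measured 40.7 and 34.0 RPKM in the WT libraries, 37.9 and 36.8 in Cdc42+/-, and 35.4 and 34.1 RPKM in Cdc42-/-. WT overlapped both mutant genotypes, and the Cdc42-/- libraries lay below the Cdc42+/- libraries (log2 fold change from WT to Cdc42-/- -0.10, or -0.069 without replicate 2). The ubiquitin ligase Syvn1 (HRD1) and its partner Sel1l, which form the core of the retrotranslocation complex, had log2 fold changes of 0.24 and 0.16 with adjusted p = 0.408 for both, and 0.052 and 0.067 without replicate 2. In Cdc42-/-, Syvn1 measured 14.9 and 19.7 RPKM, against 12.8 to 18.3 RPKM in the other libraries, and Sel1l 20.5 and 23.5 RPKM, against 18.8 to 19.9 RPKM. The derlins Derl1 and Derl2, membrane components of the same complex, had 0.08 and -0.06, and -0.065 and -0.11 without replicate 2.

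Of the 7 translocon and TRAP genes, 1 rose (6.86% of all genes), and the median log2 fold change was 0.30 (0.01 in replicate 1 and 0.53 in replicate 2). Sec61a1 (chr6:88503607-88518800, GRCm38), the pore of the channel, measured 64.7 and 63.5 RPKM in the WT libraries, 67.3 and 66.8 in Cdc42+/-, and 83.5 and 92.3 RPKM in Cdc42-/-. Replicates were close in each group and the Cdc42-/- libraries were apart from the other 4. The log2 fold change from WT was 0.45 ± 0.10 (SE), with adjusted p = 0.0393 by limma, running from 0.00381 to 0.219 over the 12 alternatives and passing in 4. Without replicate 2 the log2 fold change was 0.38. In the authors' deposited table Sec61a1 has a log2 fold change of 0.41 with an adjusted p of 0.348. Its small partner subunits did not pass the test. Sec61b measured 69.0 and 95.6 RPKM in Cdc42-/- and 72.8 to 77.6 in the others, and Sec61g 23.3 and 30.2 RPKM against 25.1 to 32.2. The log2 fold changes of these subunits were 0.13 (adjusted p = 0.634) and -0.13 (adjusted p = 0.654), and -0.10 and -0.31 without replicate 2.

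The TRAP complex assists insertion of some nascent chains at the channel. Its subunit gene Ssr2 measured 40.7 and 40.8 RPKM in the WT libraries, 44.8 and 45.6 in Cdc42+/-, and 53.1 and 72.5 RPKM in Cdc42-/-. The 3 genotypes were in order without overlap (log2 fold change from WT to Cdc42-/- 0.60 ± 0.16 SE, adjusted p = 0.0613 by limma, or 0.38 without replicate 2). Ssr1 measured 18.1 and 25.2 RPKM in Cdc42-/-, Ssr3 52.2 and 88.0 RPKM and Ssr4 38.6 and 58.2 RPKM. In each of these 3, replicate 1 lay within the range of the other 4 libraries and replicate 2 above it, and the log2 fold changes from WT were 0.30, 0.33 and 0.30 with adjusted p between 0.278 and 0.407. Without replicate 2 they were 0.075, -0.043 and 0.0085. Ssr4 lies on the X chromosome, and its differences from WT cannot be told apart from sex in Cdc42+/- and in Cdc42-/- replicate 1.

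Reads of 13 members could be shared with an annotated gene whose exons overlap theirs, since the strand setting of the counting is not given in the sources used here. For 7 of these an overlapping gene is also in the tables: Hsp90b1 with 1810014B01Rik, Pdia3 with Catsper2, Manf with Rbm15b, Ddit3 with Mars, Ppp1r15a with Tulp2, Syvn1 with Mrpl49 and Derl2 with Mis12. Rbm15b lies on the strand of Manf and the others on the opposite strand of their member. Pdia4, Pdia6, Dnajb9, Eif2ak3, Sec61a1 and Ssr2 overlap an annotated gene with no row in the tables. Atf6 and Dnajc3 overlap none.

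In the Cdc42+/- cells, 0 of the 36 members differed from WT by limma, and the background was 0% of the 12233 genes. At an unadjusted p under 0.05 there were also 0 members (4.32% of all genes), voom on recovered reads called 0 members (0.00817% of all genes), and the authors' deposited table calls 0 (2.28% of its genes). The median log2 fold change of the members, 0.03, equalled that of all genes tested at 2 decimals, and 25 of 36 were above 0, against 56.6% of all genes. Both Cdc42+/- libraries lay above both WT libraries for 13 members (26.2% of all genes) and below for 4 (17.0% of all genes). The member with the smallest p was Ern1, with a log2 fold change of 0.61 ± 0.27 (SE) and adjusted p = 0.999. Atf6 followed among the sensors with 0.38, and Ppp1r15a had 0.35, Syvn1 0.28, Manf 0.23, Derl1 0.22 and Atf4 0.22, all with the same adjusted p of 0.999. The plasma cell marker Jchain stood at 10.1 and 9.17 RPKM in WT and at 89.0 and 69.2 RPKM in Cdc42+/-, and its part in these small differences was not tested.

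Between the mutant genotypes, 0 of the 36 members differed by limma in the comparison of Cdc42-/- with Cdc42+/-, against 8.22% of all genes (4.68% higher and 3.54% lower). At an unadjusted p under 0.05, 10 members were higher and 1 was lower in Cdc42-/- (27.1% of all genes in either direction), and voom on recovered reads called 2, Atf6 and Sdf2l1 (background 9.67%). The median log2 fold change of the members was 0.22, with 27 of 36 above 0, beside -0.01 and 48.9% over all genes. Both Cdc42-/- libraries lay above both Cdc42+/- libraries for 14 members (28.6% of all genes) and below for 4 (30.4% of all genes). Sdf2l1 had the smallest p, with a log2 fold change of 1.16 ± 0.27 (SE) and adjusted p = 0.0538, followed by Trib3 with 1.04 and adjusted p = 0.0568. Sec61a1 had 0.38 (adjusted p = 0.0695), Atf6 0.79 (adjusted p = 0.0870) and Dnajc3 -0.35 (adjusted p = 0.0894). Without Cdc42-/- replicate 2, Sec61a1 and Sdf2l1 were higher (background 7.28%) and Dnajc3 was lower (background 7.60%), and without replicate 1 there were 21 higher and 2 lower (background 19.3% and 15.5%). This comparison and the one with WT share the Cdc42-/- libraries.

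Other genes of the pathway were counted from lists. In Cdc42-/- against WT, none of the 21 tested ER folding genes outside the 36 passed (11.4% of all genes), with a median log2 fold change of 0.24 (0.08 in replicate 1 and 0.32 in replicate 2), and 2 were higher and 1 lower at an unadjusted p under 0.05. Of 19 other degradation genes 1 rose (6.86% of all genes) and 2 were higher at an unadjusted p under 0.05. It was Nploc4, an adaptor of the p97 segregase, from 16.3 and 15.8 RPKM in WT to 23.9 and 23.3 RPKM in Cdc42-/- (log2 fold change 0.53, adjusted p = 0.0317, passing in 5 of 12 alternatives with a highest value of 0.183). The median of the list was 0.00 (0.04 in replicate 1 and -0.01 in replicate 2). None passed by limma among 17 genes of signal peptide handling (median 0.08, or -0.09 in replicate 1 and 0.26 in replicate 2), 14 of N-glycosylation (0.26, or 0.15 and 0.45), 13 of the COPII export coat (0.05, or 0.04 and -0.04) and 16 other regulators of the response (0.12, or 0.11 and 0.14). At an unadjusted p under 0.05 these lists held 1 higher and 1 lower, 4 higher, 2 higher and 1 higher, in that order, beside 16.0% higher and 13.3% lower over all genes.

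Among 19 tested targets of ATF4 and CHOP, 5 rose in Cdc42-/- and 0 fell (6.86% and 4.57% of all genes), with a median of 0.56 that was 0.46 in replicate 1 and 0.90 in replicate 2. Wars, a tryptophan tRNA synthetase, measured 21.6 and 20.02 RPKM in the WT libraries, 21.1 and 21.6 in Cdc42+/-, and 51.3 and 39.7 RPKM in Cdc42-/-, and here replicate 1 was the higher (log2 fold change 1.08, adjusted p = 0.00852). The serine synthesis genes Phgdh and Psat1 had log2 fold changes of 0.85 (adjusted p = 0.01004) and 1.41 (adjusted p = 0.0135), and the glycine tRNA synthetase Gars 0.78 (adjusted p = 0.0175). The members that act on this list, Atf4 and Ddit3, had log2 fold changes of 0.21 and -0.40, as given above. In Cdc42+/- none of the 19 passed, with a median of 0.09 and 0 at an unadjusted p under 0.05, and in Cdc42-/- against Cdc42+/- 5 rose and 0 fell (4.68% and 3.54% of all genes), with a median of 0.80.

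For comparison outside the ER, 5 of 20 cytosolic and mitochondrial chaperones rose in Cdc42-/- (6.86% of all genes), with a median of 0.31 (0.15 in replicate 1 and 0.54 in replicate 2), equal at 2 decimals to that of the 36 members. Hspa8, the constitutive Hsp70 of the cytosol, went from 635 and 619 RPKM in WT to 1096 and 1275 RPKM in Cdc42-/-, and Stip1, which links Hsp70 to Hsp90, from 51.5 and 52.4 to 83.1 and 86.2 RPKM. The 20 proliferation genes all rose, with a median of 3.39 (3.06 and 3.72). All of these medians stand beside 0.01 for all genes tested.

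**Figure D4:**
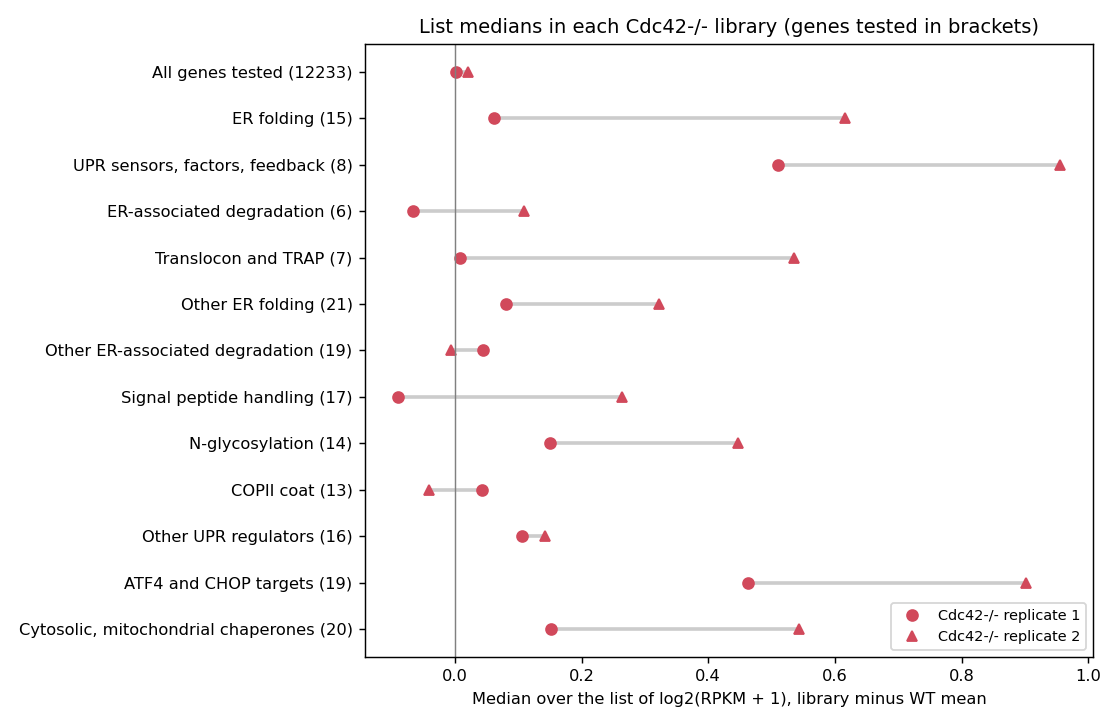
Median difference of log2(RPKM + 1) from the WT mean for all genes tested, each role of the members and each further list, with 1 point for each of the 2 Cdc42-/- libraries joined by a line. Among the roles, the sensors and feedback genes have the highest medians (0.51 and 0.96) and the degradation genes the lowest (-0.07 and 0.11).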

How the data were processed

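RNA-seq of 6 libraries was taken from 2 deposited tables of 14608 genes, each comparing a knockout genotype with the same WT libraries. TopHat and the mm10 build are named in the submitters' processing notes, and the counting tool and strand setting are not given in the sources used here. The authors deposited one value per gene and library with no unit in the header, and these behaved as RPKM, since with the deposited group means (a signal, reads divided by size factors) 100% of values came back as whole reads within 0.01. The authors' fold change ratio, its log2 value and its p-value and adjusted p-value are quoted only as the authors' deposited table. Columns of unknown sample numbered 0.

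After removal of genes whose mean was under 0.5 RPKM, 12233 remained. Their log2(RPKM + 1) values in the 6 libraries entered 1 linear model (limma 3.58.1 under R 4.3.3, eBayes with trend), and p-values were two-sided with Benjamini-Hochberg adjustment at 0.05. SE denotes the moderated standard error of that model. The fit was tested on simulated data. The alternatives were a pseudocount of 0.1, no filter, upper-quartile scaling, 2 genotypes alone, voom on recovered reads, a replicate block and leaving out each library. All 36 members are named or counted, and at most 4 genes of each other pathway list, those past the threshold with the smallest p. Cdc42, Xist, Ddx3y, Foxp3 and the defining plasma cell markers are named whatever their values. Other markers are named where they passed in Cdc42-/- against WT, and Ctla4 as the Treg and T cell marker that went the other way. The members and lists were chosen with earlier results of these data known. Exon overlaps come from the GENCODE annotation and promoters from RefSeq GRCm38.p6.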

Additional observations from a re-analysis of the deposited data

How the results depend on the processing

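The count of members past the threshold in Cdc42-/- against WT, 3 with limma, was 5 with a pseudocount of 0.1 (4 higher and 1 lower), 0 with WT and Cdc42-/- fitted alone, and 0 to 27 when 1 library was left out. In Cdc42-/- against Cdc42+/- it was 0, and 2 with voom on recovered reads, 1 with the replicate block (6.61% of all genes), and 0 to 23 when 1 library was left out. The median log2 fold change in Cdc42-/- against WT kept its sign (0.07 to 0.57 when 1 library was left out). In Cdc42-/- against Cdc42+/- it ran from -0.040, without Cdc42-/- replicate 2, to 0.46. In Cdc42+/- against WT it was 0.00081 with upper-quartile scaling, 0.0045 with voom and 0.016 to 0.078 when 1 library was left out. The log2 fold changes of 13 members changed sign in Cdc42-/- against WT when 1 library was left out: Hspa5 (-0.11 to 0.56), Calr (-0.067 to 0.57), Pdia3 (-0.12 to 0.29), Pdia4 (-0.16 to 0.49), Pdia6 (-0.16 to 0.80), Dnajb9 (-0.50 to 0.23), Ddit3 (-0.91 to 0.11), Herpud1 (-0.22 to 0.030), Derl1 (-0.065 to 0.23), Derl2 (-0.14 to 0.015), Sec61b (-0.10 to 0.36), Sec61g (-0.31 to 0.055) and Ssr3 (-0.043 to 0.70). Fits that leave out a library have fewer samples, and the cause of the other changes was not tested.

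The deviations of libraries with the same replicate number correlated with r of 0.20 for WT with Cdc42-/-, 0.02 for WT with Cdc42+/- and -0.03 for Cdc42+/- with Cdc42-/- (over 12233 genes). Not every pair deviated together and no label ties the numbers, so they were not taken to pair the libraries. With the replicate block, 3 members passed in Cdc42-/- against WT (Ppp1r15a, Atf6 and Sdf2l1, beside 9.35% of all genes), and Dnajc3 and Sec61a1 did not (adjusted p = 0.0585 and 0.0638 by limma). In the same block, 0 members passed in Cdc42+/- against WT. With 2 libraries a group, 1 library can decide a call, and weakly expressed members such as Trib3 rest on as few as 16 reads.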
